A study of Homo sapiens with 4 samples.

Results

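The genes described here are 9 genes in which inherited variants cause or raise the risk of amyotrophic lateral sclerosis (ALS) or frontotemporal dementia (FTD): TARDBP, SOD1, C9orf72, OPTN, TBK1, VCP, UBQLN2, ANXA11 and GRN. They were taken by symbol and not by their values, and all 9 were found among the 28307 gene symbols of the count tables and passed the filter on low counts, which 15708 symbols passed. The assay was bulk polyA RNA-seq (paired-end, 75 bp) of excitatory neurons (i3N) differentiated from WTC11, an established line of human induced pluripotent stem cells. All 4 libraries come from this single line, whose CLYBL gene holds, in an intron, dCas9-KRAB under a CAG promoter. This fusion of a Cas9 that cannot cut with a repressor domain silences DNA where a guide RNA pairs (CRISPR interference, CRISPRi). In the 2 CRISPRi libraries the guides were aimed at a MIR transposable element on chromosome 11, and in the 2 control libraries the vector was empty. In both groups neurons differentiated for 2 weeks were infected with lentivirus (multiplicity near 3), selected for 4 days with 0.5 μg/mL puromycin and collected 7 days after the virus. The protocol names 2 guides for each locus, and the labels do not assign guides to libraries.

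ALS is a loss of motor neurons and FTD a loss of neurons of the frontal and temporal cortex, and the disorders share genes and protein deposits. In most patients with ALS, and in a large share of those with FTD, the RNA-binding protein TDP-43, the product of TARDBP, leaves the nucleus and collects in the cytoplasm. Several of the other genes act in clearing proteins and organelles: VCP is an ATPase that pulls ubiquitinated proteins out of complexes and membranes, UBQLN2 carries them to the proteasome, OPTN is a receptor for selective autophagy, and TBK1 is the kinase that phosphorylates OPTN. C9orf72 acts with SMCR8 and WDR41 in a complex of the endosome and lysosome pathway, GRN encodes progranulin, a secreted and lysosomal protein, ANXA11 tethers RNA granules to lysosomes, and SOD1 is the cytosolic superoxide dismutase.

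The best known variant of this group is not a change of a protein but a repeat, a long expansion of the unit GGGGCC in C9orf72. The reference sequence that holds this repeat is shown because it marks where the variant lies relative to the start sites whose transcripts were counted together. It is the 250 bases before the second RefSeq start site of C9orf72 (RefSeq, GRCh38.p14, chr9:27573482-27573731, minus strand), with the run of GGGGCC in capitals:

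C9orf72: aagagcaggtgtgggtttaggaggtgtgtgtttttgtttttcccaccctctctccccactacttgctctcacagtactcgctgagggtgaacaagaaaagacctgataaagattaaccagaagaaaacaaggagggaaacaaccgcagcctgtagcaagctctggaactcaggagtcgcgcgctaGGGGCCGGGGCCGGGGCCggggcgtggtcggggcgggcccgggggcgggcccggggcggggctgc

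The reference holds 3 units in a row, at chr9:27573529-27573546, ending 47 bases before that start site. In GENCODE release 29 the run lies in an intron of 5 of the 8 C9orf72 transcripts and upstream of the first exon of the other 3. As many units in a row, on either strand, were present in 10 of 35116 RefSeq windows of 300 bases around a start (250 before and 50 after), or 0.0285%. A single GGGGCC was present in 36.2% of the windows, and also in windows of GRN, OPTN and ANXA11. The length of the repeat in these neurons was not analysed here.

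Total counts were 39325038 to 44839748 in 3 libraries and 944993 in control replicate 1, which is 41.6 times below the shallowest of the others. Levels are given as CPM, counts scaled to the library total, and 1 count in that library equals 1.06 CPM. That library also stands apart in content: 10 marker genes of dividing cells summed to 372 CPM there and to 60.0 to 65.5 CPM in the others, and each of the 10 was highest in it. Pan-neuronal markers (12 genes) summed to 19221 to 22738 CPM, lowest in the same library. Of 7 listed markers of excitatory neurons, the vesicular glutamate transporters were highest, SLC17A6 at 145 to 162 CPM and SLC17A7 at 302 to 362 CPM. CAMK2B was at 73.9 to 85.0 CPM, GRIN2B at 25.3 to 32.4 CPM and GRIN1 at 11.6 to 15.9 CPM. GRIA2 was at 9.95 to 14.8 CPM and CAMK2A at 4.88 to 9.52 CPM. Markers of motor neurons, the cells lost in ALS, were present in part. Of the cholinergic genes, SLC18A3 was at 96.3 to 106 CPM, CHAT at 11.4 to 14.8 CPM and SLC5A7 at 0 to 2.27 CPM. Of the homeobox factors, ISL1 was at 20.1 to 29.8 CPM, ISL2 at 10.6 to 13.2 CPM, MNX1 at 1.93 to 6.35 CPM and LHX3 at 0 to 0.229 CPM. Of 9 markers of microglia and macrophages, 6 (AIF1, P2RY12, TREM2, TYROBP, PTPRC and SPI1) had 0 counts in every library and the 9 summed to at most 0.268 CPM. The title and design text give different positions for the targeted element, both between the neighbouring genes C1QTNF4 and MTCH2 in GENCODE release 29. The log2 fold changes of these genes were 0.06 and 0.08, and the element itself was not measured here, so the guides have no direct check. In bulk RNA, fewer cells of a type and less RNA per cell cannot be told apart.

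By the median over libraries, the 9 genes spanned from VCP at 483 CPM to ANXA11 at 11.1 CPM. Levels between genes are compared on the authors' FPKM values (counts scaled to transcript length and library size), since CPM grows with transcript length. On that scale the order was the same in all 4 libraries: SOD1, VCP, GRN, TARDBP, UBQLN2, OPTN, C9orf72, TBK1 and ANXA11. The upper part of this order depends on the length used. Median CPM per kb of all GENCODE exonic bases put VCP (88.8) before SOD1 (59.8). Then came UBQLN2 (28.4), TARDBP (22.6) and GRN (20.4), with the order below unchanged. SOD1 was at 130 to 162 FPKM and VCP at 124 to 128 FPKM, and their ranges over libraries nearly touch. The ranges of GRN (32.9 to 42.6 FPKM) and TARDBP (31.2 to 33.8 FPKM) overlapped, as did those of UBQLN2 (26.2 to 28.3 FPKM) and OPTN (22.8 to 26.7 FPKM). C9orf72 (7.54 to 12.1 FPKM), TBK1 (5.45 to 6.80 FPKM) and ANXA11 (1.51 to 4.06 FPKM) did not overlap with each other or with the 6 above them. In CPM, VCP came first in every library, and by the median over libraries SOD1, which has the shortest transcript of the 9, came after TARDBP. The CPM order of SOD1, TARDBP and UBQLN2 differed between libraries.

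**Figure D1:**
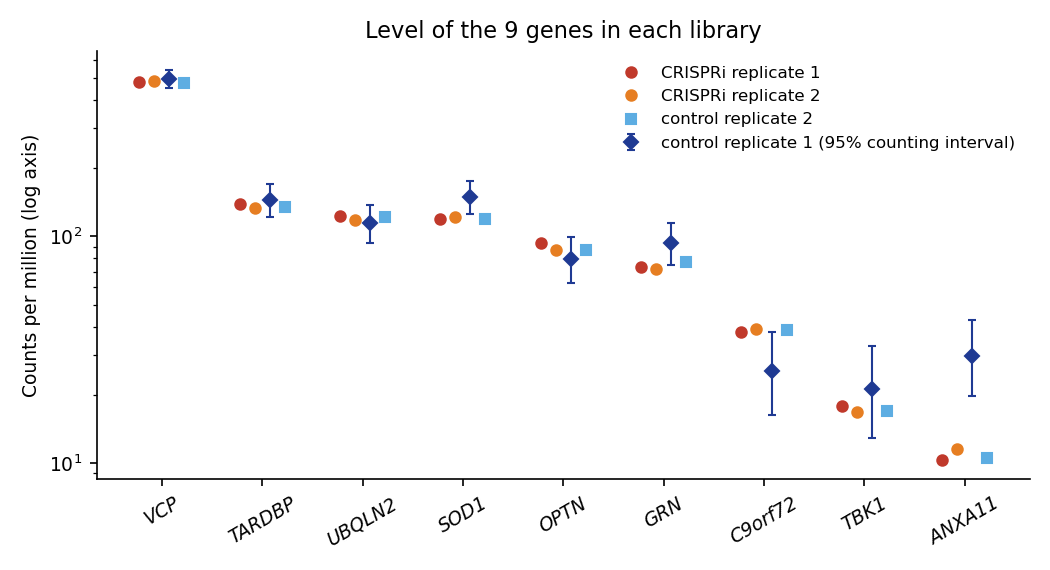
Level of each of the 9 genes (x axis) in CPM on a log axis, 1 point for each library; bars on control replicate 1 are exact Poisson 95% intervals, which cover counting error only. The 3 deep libraries lie close together for each gene, and control replicate 1 lies apart from them for ANXA11 (29.6 CPM against 10.3 to 11.6 CPM).

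No member passed the comparison of CRISPRi with control. With p adjusted by Benjamini-Hochberg over all tested genes (edgeR, quasi-likelihood), 0 of 9 were called, against 0.0255% of all tested genes (4 of 15708, each lower in CRISPRi). Unadjusted p lay under 0.05 for 0 of the 9 and for 0.961% of tested genes. Neither DESeq2 nor limma-voom called a member. The members' median log2 fold change was -0.01, beside 0.01 for all tested genes, with 4 values positive and 5 negative. For 8 of the 9 the 95% confidence interval lay within 1.5-fold in either direction, as it did for 53.1% of all tested genes and for 82.2% of the 9971 with a mean of 10 CPM or more. The exception was ANXA11. CPM of the groups did not overlap for 2 of 9, OPTN (CRISPRi higher) and GRN (CRISPRi lower), where 34.3% of all tested genes do not overlap.

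TARDBP encodes TDP-43 (chromosome 1 from 11012344 to 11026420, plus strand, GENCODE release 29 on GRCh38, as for the positions that follow). Its level was 139 CPM in the first and 134 CPM in the second CRISPRi library, and 145 CPM and 136 CPM in the controls, here and below with replicate 1 before replicate 2. The groups overlapped, and all 4 values lay within the counting interval of control replicate 1 (122 to 171 CPM). The log2 fold change was -0.01 (95% interval -0.19 to 0.17, edgeR adjusted p = 1). Of the 75-base windows of its transcript, 28.2% also occur in transcripts of other GENCODE genes on the same strand, nearly all in AL109811.4, an overlapping gene model that is no symbol of the deposited tables. How such reads were counted is not stated in the labels.

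TDP-43 keeps cryptic exons out of other transcripts, and loss of its function lowers STMN2, a microtubule regulator of growing axons, and UNC13A, a priming factor of synaptic vesicles. For STMN2 the CRISPRi libraries held 2771 and 2760 CPM and the controls 2304 and 2688 CPM, with a log2 fold change of 0.16 (95% interval -0.09 to 0.42, edgeR adjusted p = 1). UNC13A was at 269 and 270 CPM against 244 and 276 CPM. For both genes control replicate 1 was the lowest library, as it was for the summed pan-neuronal markers, of which STMN2 is itself one. Of 12 listed transcripts that depend on TDP-43, 12 were tested and 0 passed in either direction, with a median log2 fold change of 0.05. The smallest p in this list was that of PFKP, a phosphofructokinase (log2 fold change -0.40, edgeR unadjusted p = 0.163), which was at 14.7 and 16.4 CPM under CRISPRi, beside controls at 31.7 and 17.6 CPM. Gene counts do not show cryptic exons, so these values bear on the level of each gene only. Leaving out control replicate 2 makes the shallow library the lone control. The log2 fold change of STMN2 was then 0.29, and PFKP moved the other way. The median in that fit was 0.17 over the list and 0.10 over all tested genes. CELF5 and AGRN were, like STMN2, lowest in control replicate 1. CELF5 was at 87.8 CPM there against 200 to 220 CPM, and AGRN at 442 against 513 to 535 CPM. Whether the listed transcripts moved more in that fit than other genes of like level was not tested.

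SOD1 (chromosome 21 from 31659622 to 31668931, plus strand) was the member with the closest deep libraries. It was at 120 and 122 CPM under CRISPRi, with control replicate 1 at 149 CPM and control replicate 2 at 120 CPM. The 3 deep libraries spanned 1.89%, and control replicate 1 was 1.24 times their mean (counting interval 1.04 to 1.46). The log2 fold change was -0.09 (95% interval -0.35 to 0.18, edgeR adjusted p = 1), and 0.02 without control replicate 1. CCS, the chaperone that loads copper into SOD1, had a log2 fold change of -0.19 and was at 6.49 to 9.52 CPM. SOD2, the mitochondrial superoxide dismutase, was at 47.5 and 43.0 CPM under CRISPRi, with control replicate 2 at 46.2 CPM and control replicate 1 at 167 CPM (158 counts). Its FPKM did not follow its counts and was lowest in control replicate 1, at 14.3 against 19.4 to 20.7 FPKM, so its level in that library is uncertain. Of the 3 listed genes of this family 0 passed, and SOD2 did so without control replicate 2 (log2 fold change -1.86).

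VCP (chromosome 9 from 35056064 to 35073249, minus strand) had the highest counts of the members, 18663 to 21466 where sequencing was deep and 468 in control replicate 1. It was at 479 and 487 CPM under CRISPRi, beside controls at 495 and 475 CPM. The CRISPRi values lay between those of the controls, and the log2 fold change was 0.01 (95% interval -0.17 to 0.20, edgeR adjusted p = 1). Of 20 listed cofactors of VCP, 20 were tested and 0 passed, with a median of 0.02, and for 19 of them the interval lay within 1.5-fold. The other was DERL1, a membrane protein of endoplasmic reticulum-associated degradation, at 30.4 CPM in CRISPRi replicate 1 and at 79.2 to 83.6 CPM in the other 3 libraries. The log2 fold change of DERL1, -0.53 (95% interval -1.96 to 0.90), rests on CRISPRi replicate 1. UFD1 and NPLOC4, which form the main adaptor for ubiquitinated proteins, had log2 fold changes of 0.04 and -0.16.

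UBQLN2 (X chromosome from 56563639 to 56567868, plus strand) was at 123 and 119 CPM under CRISPRi, beside controls at 114 and 122 CPM. Groups overlapped, the log2 fold change was 0.03 (95% interval -0.16 to 0.22, edgeR adjusted p = 1), and the 3 deep libraries spanned 3.90%. None of the 4156 windows of 75 bases in its transcript occurs in a transcript of another GENCODE gene, its relatives included. UBQLN1, the closest relative expressed here, was at 258 to 283 CPM (log2 fold change 0.05), and UBQLN4 at 98.2 to 107 CPM (log2 fold change -0.02). UBQLNL was not tested, with at most 0.0446 CPM.

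OPTN (chromosome 10 from 13099449 to 13138308, plus strand) was at 93.2 and 87.6 CPM under CRISPRi, beside controls at 79.4 and 86.9 CPM. Both CRISPRi values lay above both controls, by less than 1 CPM at the nearest pair. The log2 fold change was 0.10 (95% interval -0.11 to 0.31, edgeR adjusted p = 1), and 0.06 without control replicate 1. TBK1 (chromosome 12 from 64451880 to 64502108, plus strand), the kinase of OPTN, was at 17.8 and 16.8 CPM under CRISPRi, with control replicate 1 at 21.2 CPM (20 counts) and control replicate 2 at 16.9 CPM. Its log2 fold change was -0.02 (95% interval -0.40 to 0.35, edgeR adjusted p = 1). An antisense gene, AC135279.3, shares 14.7% of the exonic bases of TBK1, and no label gives the strand setting of the counting, so reads of the pair cannot be told apart.

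Of 14 listed autophagy receptors and partners of TBK1, 14 were tested and 0 passed, the median log2 fold change being 0.04. The receptor SQSTM1 (p62), itself an ALS and FTD gene, was at 94.0 and 96.0 CPM against 93.1 and 98.7 CPM, and TANK, an adaptor of TBK1, had a log2 fold change of 0.03. AZI2, another TBK1 adaptor, had the smallest p of all the listed genes (log2 fold change 0.49, 95% interval 0.01 to 0.96, edgeR unadjusted p = 0.0462, adjusted p = 1). The value of AZI2 rests on control replicate 2, at 34.3 CPM, since control replicate 1 was at 56.1 CPM and CRISPRi at 55.7 and 52.4 CPM. In FPKM the libraries of AZI2 lay closer, at 20.6 and 16.8 under CRISPRi beside 20.2 and 15.8 for the controls, so the low value of control replicate 2 is uncertain. AZI2 passed without control replicate 1 (log2 fold change 0.66, edgeR adjusted p = 0.00900), where 0.659% of tested genes passed, and turned to -0.02 without control replicate 2.

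C9orf72 (chromosome 9 from 27546545 to 27573866, minus strand) was at 37.8 and 39.1 CPM under CRISPRi, with control replicate 1 at 25.4 CPM and control replicate 2 at 38.6 CPM. The value of control replicate 1 rests on 24 counts, with a counting interval of 16.3 to 37.8 CPM whose upper end lies just under the lowest deep library (37.8 CPM). The log2 fold change was 0.12 (95% interval -0.28 to 0.52, edgeR adjusted p = 1). Leaving out control replicate 1 gave 0.00, and leaving out control replicate 2 gave 0.63 (edgeR adjusted p = 0.142), so the value moves with the control left out. In the deep libraries the deposited rows list 3 RefSeq transcripts of C9orf72, and in control replicate 1 a single one. In GENCODE, 2 of the transcripts start before the GGGGCC run printed above and the other starts after it, and the deposited count is for the gene as a whole. Its partner SMCR8 was at 47.1 and 48.4 CPM against 66.7 and 49.1 CPM, and WDR41 at 66.9 and 65.5 CPM against 58.2 and 61.6 CPM. The log2 fold changes of these partners were -0.15 and 0.14, and 0 of 2 passed.

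GRN (chromosome 17 from 44345086 to 44353102, plus strand) had the smallest p of the members (edgeR unadjusted p = 0.161). It was at 73.1 and 71.8 CPM under CRISPRi, with control replicate 1 at 93.1 CPM and control replicate 2 at 77.0 CPM. Both controls lay above both CRISPRi values, and the log2 fold change was -0.16 (95% interval -0.40 to 0.08, edgeR adjusted p = 1). Without control replicate 1 it was -0.08. Progranulin is abundant in microglia, whose defining markers were at or near 0 counts in these libraries, as given above.

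Of 13 listed partners of progranulin and lysosomal genes, 13 were tested and 0 passed, the median log2 fold change being 0.04. SORT1, the receptor that takes up progranulin, had the smallest p among them (log2 fold change 0.16, 95% interval -0.03 to 0.35, edgeR unadjusted p = 0.0870) and was at 180 and 177 CPM against 153 and 165 CPM. PSAP, prosaposin, which carries progranulin to the lysosome, was at 910 and 911 CPM against 792 and 893 CPM, and passed without control replicate 2 (log2 fold change 0.23). TMEM106B, a lysosomal membrane protein and FTD risk gene, split by replicate number and not by group, at 46.7 and 22.1 CPM under CRISPRi and 45.5 and 25.9 CPM in controls. Its fold change of 1.15 had a 95% interval of 0.470 to 2.83, so that a difference of 2 times in either direction was not excluded.

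ANXA11 (chromosome 10 from 80150889 to 80205572, minus strand) was the member whose libraries differed most. It was at 10.3 and 11.6 CPM under CRISPRi, with control replicate 2 at 10.5 CPM and control replicate 1 at 29.6 CPM. Control replicate 1 stood 2.74 times above the mean of the other 3 (counting interval 1.82 to 3.96), on 28 counts. Among 9943 tested genes with a mean of 10 CPM or more and a count in that library, 99 (0.996%) had a ratio as high or higher. The log2 fold change was -0.38 (95% interval -1.47 to 0.71, edgeR adjusted p = 1). It was 0.06 without control replicate 1. Without control replicate 2, which leaves control replicate 1 alone, it was -1.41 and passed (edgeR adjusted p = 0.0127), where 8.58% of tested genes passed and 4.97% passed with CRISPRi lower. The markers of dividing cells moved with this value, at 5.87 times the mean of the deep libraries in control replicate 1, and their part in it was not tested.

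Of 14 listed annexins and partners, 10 were tested and 0 passed, the median log2 fold change being -0.08. ANXA2 (57.1 against 35.4 to 39.7 CPM), ANXA5 (69.8 against 38.9 to 42.9 CPM) and ANXA6 (50.8 against 31.4 to 33.7 CPM) were also highest in control replicate 1. ANXA7 was at 33.9 CPM there and at 29.1 to 29.4 CPM in the others. ANXA9 was highest there on 4 counts (4.23 against 2.67 to 3.28 CPM), and ANXA4 was not, on 3 counts (3.17 against 2.99 to 3.46 CPM). Their ratios to the deep mean were 1.52 for ANXA2, 1.70 for ANXA5 and 1.56 for ANXA6. The 95th percentile over 9943 tested genes was 1.67. ANXA1 had the smallest p of the list (log2 fold change 1.44, edgeR unadjusted p = 0.0665) at 0.491 and 0.577 CPM under CRISPRi, 0.203 CPM in control replicate 2 and 0 counts in control replicate 1, where 3 counts would be 3.17 CPM. ANXA8, ANXA10 and ANXA13 had 0 counts in every library.

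**Figure D2:**
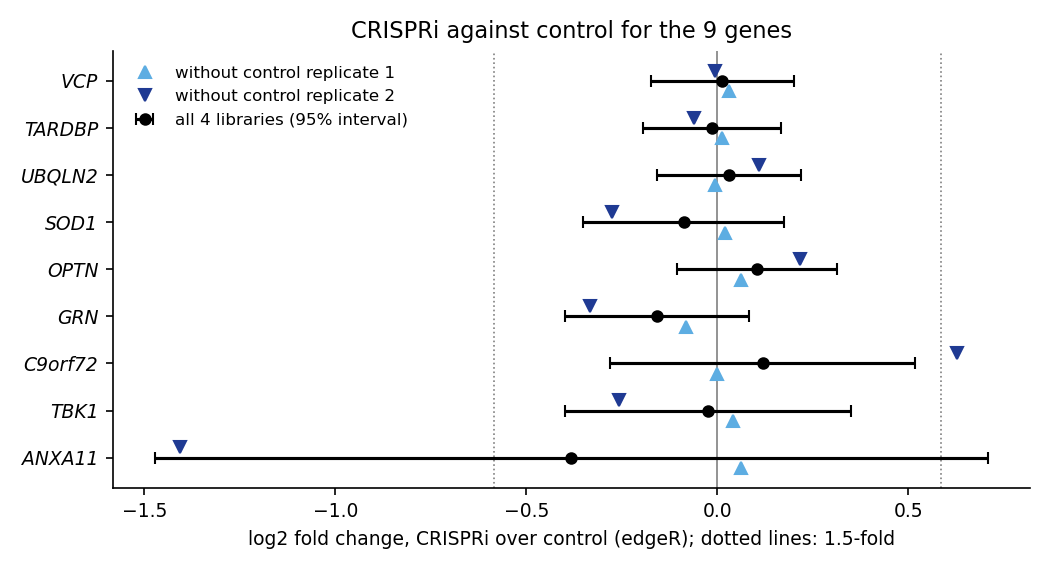
Log2 fold change of CRISPRi over control (x axis) for each of the 9 genes, with 95% confidence intervals from edgeR on all 4 libraries and points for the fits that leave out either control; dotted lines mark 1.5-fold. All intervals include 0, 8 of 9 stay inside the dotted lines, and ANXA11 moves from 0.06 to -1.41 with the control left out.

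The members varied little among the deep libraries and more in control replicate 1. In the 3 deep libraries the highest value exceeded the lowest by 1.89% (SOD1) to 12.1% (ANXA11), with a median of 4.06% over the members and of 6.34% over tested genes with a mean of 10 CPM or more. Control replicate 1 lay from 0.659 (C9orf72) to 2.74 (ANXA11) times the deep mean. Its counting interval lay below 1 for C9orf72 (0.422 to 0.981). It lay above 1 for SOD1 (1.04 to 1.46), GRN (1.01 to 1.55) and ANXA11 (1.82 to 3.96). Over 9943 tested genes with a mean of 10 CPM or more, the quartiles of this ratio were 0.873 and 1.18. How many of those genes have an interval that excludes 1 was not counted. For TARDBP, OPTN, TBK1, VCP and UBQLN2 the ratio was within counting error. Without that library the log2 fold changes of the 9 ran from -0.08 (GRN) to 0.06 (OPTN, ANXA11).

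**Figure D3:**
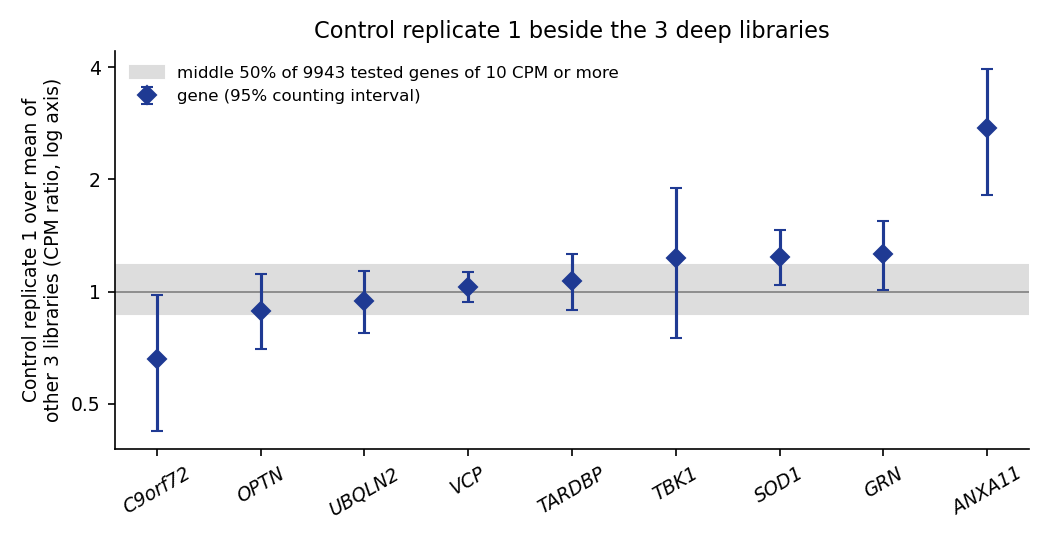
Ratio of control replicate 1 to the mean of the other 3 libraries (y axis, CPM ratio on a log axis) for each gene, with exact Poisson 95% counting intervals of the shallow library; the grey band holds the middle 50% of 9943 tested genes with a mean of 10 CPM or more. ANXA11 stands at 2.74 and C9orf72 at 0.659, and the other 7 lie between 0.890 and 1.26.

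Of 30 other ALS and FTD genes, all 30 were tested and 0 passed in either direction, with 16 log2 fold changes positive, 14 negative and a median of 0.02. The smallest p was that of CHCHD10, a mitochondrial protein (log2 fold change -0.18, edgeR unadjusted p = 0.116), at 52.1 and 52.2 CPM under CRISPRi and at 67.7 and 56.9 CPM in controls. PFN1, profilin, which drives actin assembly, was at 329 and 328 CPM against 422 and 340 CPM, and passed without control replicate 2 (log2 fold change -0.33). Over the 9 other lists, with each gene counted once, 104 of 110 genes were tested, 0 passed and 1 (AZI2) had a p under 0.05 before adjustment. DESeq2 and limma-voom called 0 of the lists' genes. The median log2 fold change was 0.02. Without control replicate 2, which leaves the shallow library as the lone control, 12 of these genes passed, among them HNRNPA2B1, CHMP2B and FIG4, and so did 8.58% of all tested genes.

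**Figure D4:**
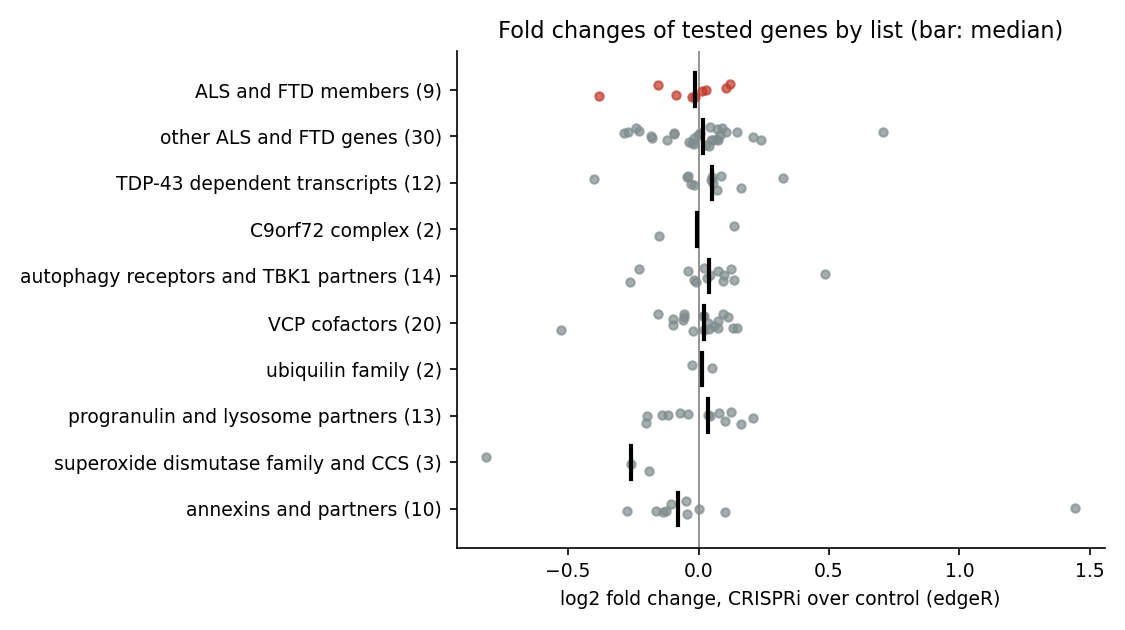
Log2 fold change of CRISPRi over control (x axis, edgeR) for the tested genes of each list, 1 point a gene, with the number tested in brackets and a bar at the median. The 9 members and the larger lists centre near 0, the outlying points include SOD2 at -0.82, DERL1 at -0.53 and ANXA1 at 1.44, and 0 of the points passed the test.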

How the data were processed

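The authors deposited, for each library, a table of RefSeq-named genes with a raw read count and an FPKM value, per the values since the tables have no header. The submitters' processing notes name hg38, edgeR and limma, with no version of either tool. Which aligner, counter and strand option were used was not stated in the labels or tables. Here counts were summed per symbol (off-primary contigs hold 5.08% to 5.15% of counts) and CPM taken on library totals. The FPKM deposited by the authors served to order genes by level and, for SOD2, AZI2 and CELF5, as a second scale beside the counts. In each library 602 to 954 rows hold a count but an FPKM of 0, none of a member. Libraries were grouped by their titles. CRISPRi was compared with control on the whole table by the quasi-likelihood F test of edgeR 4.0.16 (R 4.3.3), robust. The test followed filterByExpr and TMM scaling, with group as the only term and an adjusted p under 0.05 as the threshold. Its p carries a Poisson bound, which keeps p from falling below that of counting error alone. Intervals of 95% derive from the F statistic without this bound, so an interval can be narrower than the p beside it implies. With 2 libraries a group, an exact two-sided permutation test cannot go below p = 0.333, so none is given. The labels call replicates biologically independent. Counting intervals are exact Poisson and cover counting error only. The test was tried on simulated counts: it recovered the folds put in and its unadjusted p-values were calibrated, but when each gene kept its own fitted spread it made clearly more false calls than the nominal rate, so single calls at this number of libraries are less certain than their adjusted p. Alternatives were other scaling (median of ratios, total counts), filters, DESeq2 1.42.0, limma-voom (limma 3.58.1), a replicate block, primary chromosomes only and each library left out; the test with no Poisson bound was added after the data were seen. Windows of 75 bases were matched exactly to GENCODE release 29 transcripts, on both strands. RefSeq start windows were found for 8 of the 9 genes, all but SOD1. Named genes are the 9 members, fixed partners, and in each list any gene past the threshold and the one with the smallest p; DERL1, CELF5, AGRN, HNRNPA2B1, CHMP2B, FIG4 and the other annexins were named after their values were seen, and UBQLNL, ANXA8, ANXA10 and ANXA13 for lack of counts. Some genes of the lists are not reported here by name. Members and lists were chosen with earlier results of these data known.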

Additional observations from a re-analysis of the deposited data

How the results depend on the processing

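Depth of control replicate 1 limits every member: its values for TBK1 and C9orf72 rest on 20 and 24 counts. No member passed under any alternative that kept all 4 libraries. With 1 library left out, 0 to 1 members were called against 0 in the main comparison (ANXA11 without control replicate 2), and 0 to 12 genes of the other lists. The lone library is then assumed to vary like the other group. Without control replicate 2 the median of all tested genes was 0.10, against 0.01. Over all genes, 0 were called higher and 4 lower. DESeq2 called 1 and 11, the fit with the replicate block 17 and 25, and limma-voom 2 lower. With a library left out the calls spanned 2 to 580 higher and 15 to 798 lower. Replicate numbers are shared between groups, nothing in the labels pairs them, and deviations of same-numbered libraries correlated at -0.03 over 15708 genes. The highest member stood, as a median over libraries, 43.6 times above the lowest in CPM and 81.8 times in FPKM. In CPM the lowest member was ANXA11 in the deep libraries and TBK1 in control replicate 1.

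The alternatives gave 117 values for the 9 members, of which 105 had the same sign and call, 11 turned sign and 1 passed. Of 256 values of 20 other named genes, 236 kept both, 14 turned sign and 6 passed. SMCR8, SQSTM1 and CHCHD10 have no value on primary chromosomes only, so that alternative does not check them. ANXA1 has none with the filter of 1 CPM in 2 libraries. The test with no Poisson bound can change p only, so its values, which are among those tallied, could not turn sign. Sign turned for VCP with total counts (log2 -0.0038), for TARDBP (0.0070), TBK1 (0.020), UNC13A (-0.0038) and TANK (-0.012) with limma-voom, and for TMEM106B with the replicate block (-0.10). With a library left out, log2 fold changes ran from -0.060 to 0.014 for TARDBP, -0.28 to 0.019 for SOD1, -0.26 to 0.040 for TBK1, -0.0062 to 0.031 for VCP, -0.0066 to 0.11 for UBQLN2, -1.41 to 0.062 for ANXA11, -0.029 to 0.17 for UNC13A, -0.050 to 0.059 for SQSTM1, -0.025 to 0.25 for TANK, -0.088 to 0.083 for UFD1, -0.011 to 0.14 for UBQLN1, -0.075 to 0.037 for UBQLN4, -0.59 to 0.51 for TMEM106B and -0.023 to 0.66 for AZI2. The causes were not tested.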
